A study of Mus musculus with 11 samples.

Results

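Keratins are the intermediate filament proteins of epithelial cells. Each filament is built from pairs of a type I (acidic) and a type II (basic) keratin, so that single-layered (simple) epithelia pair *Krt8* with *Krt18*, and the basal cells of stratified epithelia pair *Krt5* with *Krt14*. *Krt7* is a further type II keratin and *Krt19* a further type I keratin of glandular and ductal epithelium, *Krt20* marks differentiated cells of gut and urinary tract lining, *Krt23* is a type I keratin found in some simple epithelia, and *Krt15* and *Krt17* are type I keratins of basal and of hair follicle or stressed epidermal cells. The Müllerian duct lining of the oviduct and the mesothelium-like ovarian surface epithelium (OSE) are both simple epithelia, and simple keratins are used by pathologists to recognise carcinomas that arise from them.

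Levels of 10 keratin genes were followed across 27 RNA-seq libraries of mouse tissues, organoids and tumors. The 10 members were chosen by name out of 18305 gene rows, which hold 34 other keratins, and all 10 were found. The libraries comprised 3 of bulk oviduct tissue, 3 of OSE tissue, 3 of organoids (epithelial cysts grown in basement membrane gel) from C57BL/6 oviducts and 2 of organoids from OSE; a further lane of OSE organoids was removed by the authors. A second set of 3 oviductal organoid libraries came from mice that express Cas9 and EGFP from the ROSA26 locus, as did everything made from them: 3 TBP clones, in which genes including *Trp53* and *Brca1* were targeted with guide RNAs and clones were selected with Nutlin-3a, 6 tumors that TBP clones formed in immunodeficient NSG mice, and 4 organoid lines grown with Nutlin-3a from such tumors. Of these lines T1-mes and T3-mes came from tumors of mixed epithelial and mesenchymal histology and hold fibroblast-like cells beside cysts, and T2-epi and T4-epi came from epithelial tumors. The tumors were grown under the skin and hold host cells. Donors of tissues and organoids were young adult females, and each organoid line pooled several mice. Tissues and tumors were extracted with Trizol and organoids with RNeasy columns, so that tissue and organoid differ in extraction as well as in culture. The study describes the tissue samples, the organoid lines and the tumors as independent of each other. It also reports 2 independent clones for each set of mutations, while 3 TBP clone libraries are given here. Each mouse was injected at 2 sites with the same clone. The 4 tumor-derived lines go back to the same TBP clone, and T1-mes and T2-epi to adjacent tumors. How many mice gave each tissue sample is not stated in the sources used here. The p-values measure the spread between these libraries, which for clones, tumors and tumor-derived lines need not be a spread between independent clones or mice.

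Total counts ran from 600579 to 4531767 except in TBP clone 1, which had 82239. Levels are given as CPM, the read counts of a gene relative to the library total after scaling by the trimmed mean of M-values (TMM). A count of 0 allows up to 3 counts, which is 0.670 to 5.21 CPM in the other libraries and 34.1 CPM in TBP clone 1, for counting error only. *Trp53* had 51.8, 34.8 and 61.1 CPM in Cas9-GFP organoids 1 to 3 and 0, 0.535 and 4.91 CPM in TBP clones 1 to 3, where clone 1 was too shallow to tell. Marker genes placed *Ovgp1*, the oviduct-specific glycoprotein of secretory cells, at 74617 to 118971 CPM in oviduct tissue. The OSE tissue was not pure epithelium, since *Hsd3b1*, a steroidogenic enzyme of the ovary's inner cells, had 4945 to 6084 CPM there, against *Krt8* at 158 to 219 CPM. OSE organoids 2 carried *Ovgp1* at 3274 CPM and OSE organoids 1 at 18.9 CPM, so that the libraries of this group differed in this marker of the other organ.

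The 10 genes lie in both keratin clusters of the mouse genome (GRCm38, GENCODE annotation). The type I genes *Krt20* (chromosome 11, 99428403 to 99438150), *Krt23* (99477974 to 99493137), *Krt15* (100131758 to 100135928), *Krt19* (100140810 to 100148665), *Krt14* (100203162 to 100207548) and *Krt17* (100256217 to 100261029) are all on the minus strand of chromosome 11. The type II genes *Krt7* (101411043 to 101430313, plus strand), *Krt5* (101707070 to 101712898, minus strand) and *Krt8* (101996698 to 102004482, minus strand) are on chromosome 15. *Krt18* is the exception, as a type I gene at the end of the type II cluster (chromosome 15, 102028180 to 102032027, plus strand). It lies 23697 bases from *Krt8* and is transcribed away from it. The libraries count 3′ ends of transcripts, and some ends are shared. In the last 500 bases of their longest transcripts, *Krt14* and *Krt17* shared 17.6% of their 30-base words with each other, *Krt18* shared 11.3% with other transcripts, most of them with the gene model *Gm5200*, and *Krt7* shared 17.7%, most of them with *Nmnat1*. *Krt5*, *Krt8*, *Krt15*, *Krt20* and *Krt23* shared none. Levels of *Krt14* and *Krt17* are therefore less certain as separate values than those of *Krt5*.

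The sequence just upstream of the start is shown for the *Krt8* and *Krt18* pair, whose levels moved together over the libraries, for *Krt5*, which did not move with them, and for *Krt20*, whose correlations with *Krt8* and *Krt18* were 0.67 and 0.71. The starts are those of RefSeq (GRCm38.p6), which had 7 of the 10 genes (*Krt15*, *Krt17* and *Krt19* had no entry), and bases inside any annotated exon were left out. Capitals mark the letters ATAAAA on either strand, chosen after the sequences were seen, or TATAAA, with which ATAAAA overlaps.
Krt8 (chr15:102004483-102004592, minus strand): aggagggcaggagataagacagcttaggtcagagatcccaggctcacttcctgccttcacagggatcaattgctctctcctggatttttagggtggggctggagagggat
Krt18 (chr15:102027966-102028179, plus strand): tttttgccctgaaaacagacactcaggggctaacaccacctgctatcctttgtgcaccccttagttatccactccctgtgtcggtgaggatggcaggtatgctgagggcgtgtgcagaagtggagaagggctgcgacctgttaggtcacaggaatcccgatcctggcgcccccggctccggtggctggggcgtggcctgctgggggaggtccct
Krt5 (chr15:101712906-101713155, minus strand): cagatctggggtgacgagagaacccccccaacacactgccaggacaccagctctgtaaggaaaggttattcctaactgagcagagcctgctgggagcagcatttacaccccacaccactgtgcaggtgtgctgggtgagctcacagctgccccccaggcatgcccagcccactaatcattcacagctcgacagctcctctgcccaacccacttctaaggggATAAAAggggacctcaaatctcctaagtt
Krt20 (chr11:99438154-99438403, minus strand): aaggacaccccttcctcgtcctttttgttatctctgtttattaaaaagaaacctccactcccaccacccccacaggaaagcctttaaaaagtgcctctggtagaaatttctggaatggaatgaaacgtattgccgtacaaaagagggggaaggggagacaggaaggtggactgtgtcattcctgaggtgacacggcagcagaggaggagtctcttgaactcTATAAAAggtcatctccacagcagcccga
The letters ATAAAA began 29 bases before the start in *Krt5*, 28 in *Krt20*, 31 in *Krt23* and 7 in *Krt7*, and were in the 250 bases before the start of 17% of 32851 promoters. *Krt8* and *Krt18* held neither these letters nor TATAAA, which 12.4% of promoters held, nor GGGCGG, which 32.7% held, nor TGANTCA, which 6.75% held, on either strand. A match of letters describes the sequence and not a binding site.

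**Figure D1:**
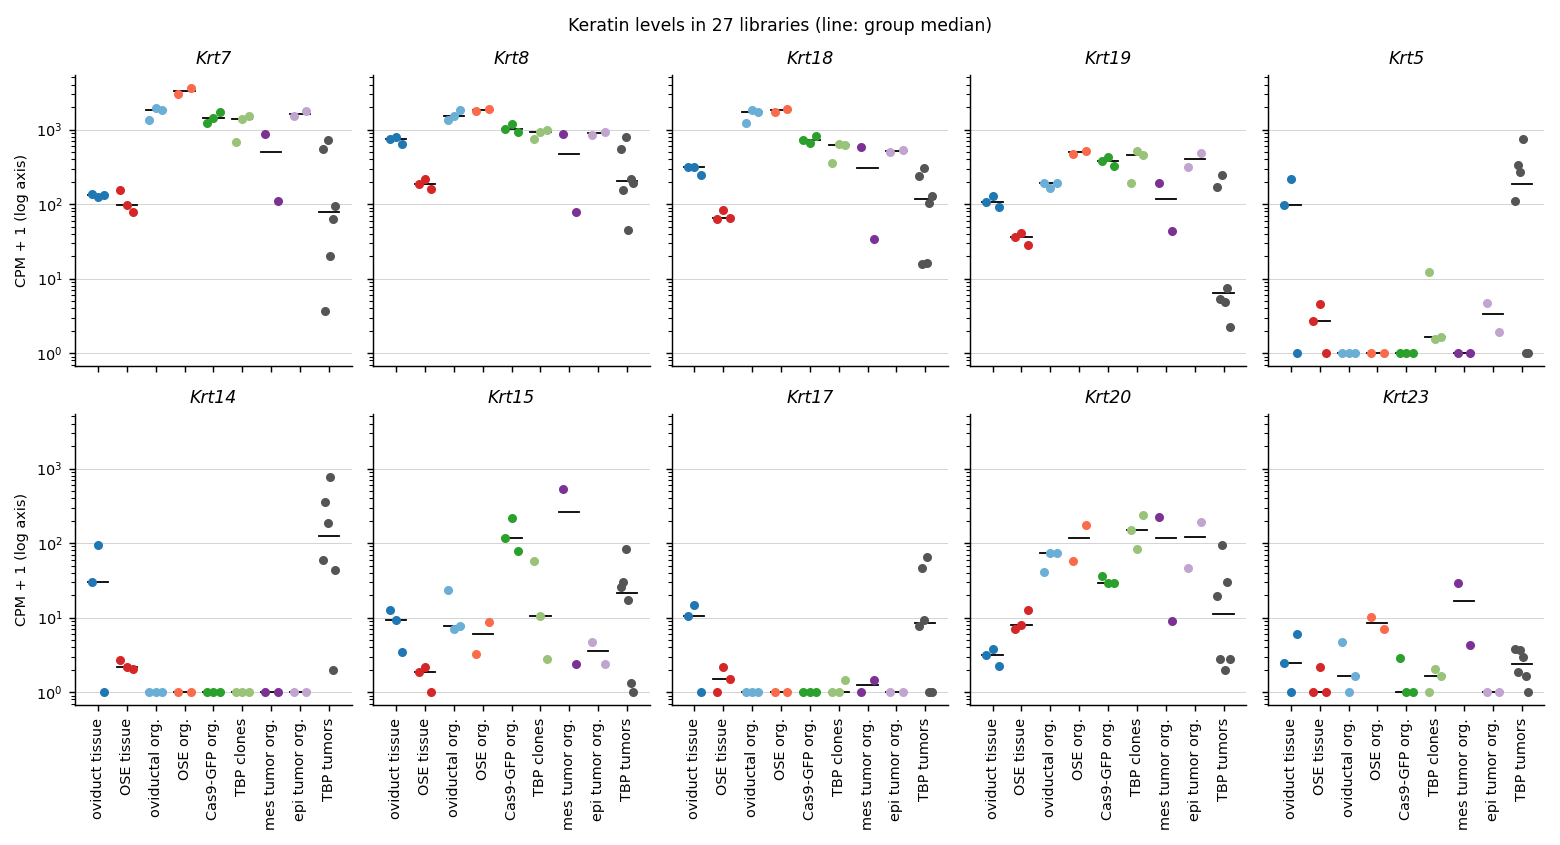
CPM plus 1 (log axis) of the 10 keratins, 1 point per library and 1 column per group, with the group median as a line. Krt7, Krt8, Krt18 and Krt19 sit above 100 CPM in all libraries of organoids except T3-mes, while Krt5, Krt14 and Krt17 reach more than 5 CPM only in oviduct tissues 1 and 2, in 5 of 6 tumors for at least 1 of these genes and, for Krt5 at a single count, in TBP clone 1.

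*Krt8* and *Krt18* had the highest correlation of any pair of members across the series, with *Krt5* and *Krt17* close behind. Over the 26 libraries with at least 500000 counts, the Pearson correlation of log2 CPM between *Krt8* and *Krt18* was 0.96, a description over libraries that share their groups. *Krt7* went with *Krt18* at 0.92, and *Krt8* with *Krt19* at 0.85. The stratified keratins formed a second set, with 0.92 between *Krt5* and *Krt14* and 0.96 between *Krt5* and *Krt17*, while *Krt7* and *Krt14* had -0.64. The non-member genes closest to the mean of *Krt8* and *Krt18* among 10974 genes were *Syngr1* (0.93), *Rassf3* (0.93), *Ppp2r2b* (0.92), *BC021891* (0.92) and *Cxadr* (0.91). Those closest to the mean of *Krt5* and *Krt14* were *Col17a1* (0.95), which encodes a hemidesmosomal collagen of basal cells, followed at a distance by *Fam167a* (0.85), *Hr* (0.83), *Dnm3os* (0.83) and *Sncg* (0.82).

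The composition of the keratin pool also differed between groups. Counting 3′ tags does not scale with transcript length, and capture may differ between genes. Ratios of the same 2 genes and shares of the same 10 genes are therefore compared between libraries, and amounts of different genes are in CPM only. *Krt18* had 0.385 to 0.427 CPM per CPM of *Krt8* in oviduct tissue and 0.330 to 0.407 in OSE tissue. In oviductal organoids this ratio was 0.911 to 1.20 and in OSE organoids 0.976 to 1.01, without overlap with the tissues. *Krt7* per *Krt8* was 0.153 to 0.207 in oviduct tissue and 0.994 to 1.30 in oviductal organoids, and it was 0.433 to 0.839 in OSE tissue and 1.67 to 1.91 in OSE organoids. Type II members made up 66.9% to 69.1% of the summed CPM of the 10 genes in oviduct tissue and 62.9% to 64.7% in oviductal organoids. Their share was 69.1% to 76.6% in OSE tissue and 67.7% to 67.8% in OSE organoids. Organoids were thus slightly lower than tissue for both origins, without overlap. In CPM, the oviductal type II share came mostly from *Krt8* in tissue and from *Krt7* and *Krt8* in like amounts in organoids.

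**Figure D2:**
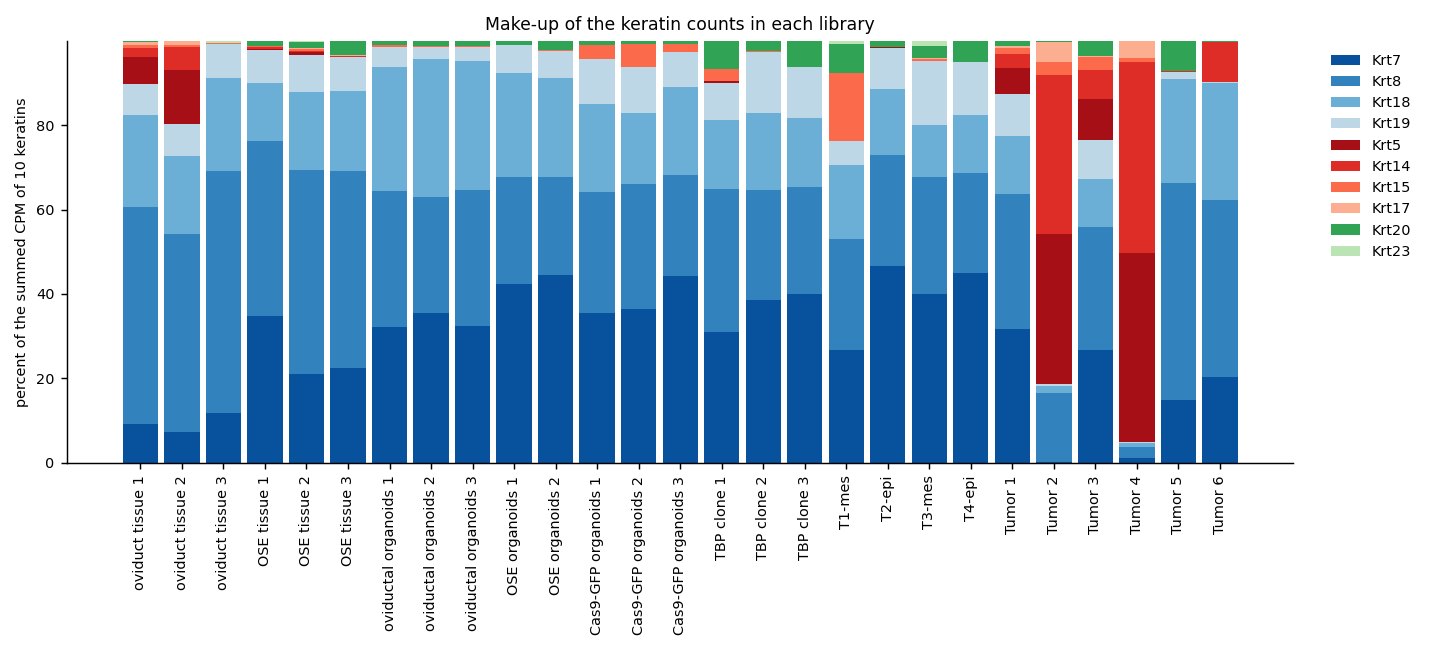
Share of each keratin in the summed CPM of the 10 genes (percent, stacked bars from 0), 1 bar per library. Krt5, Krt14, Krt15 and Krt17 (reds) make up 81.1% in Tumor 2 and 94.9% in Tumor 4, and Krt15 is all of the 16.1% in T1-mes.

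Oviduct tissue was compared with OSE tissue to ask how the epithelia of both organs differ before culture. *Krt8*, *Krt18* and *Krt19* were higher in oviduct tissue, and *Krt7* was the exception. *Krt8* had 739, 795 and 642 CPM in oviduct tissues 1 to 3 and 186, 219 and 158 CPM in OSE tissues 1 to 3. The groups did not overlap, and the fitted log2 fold change was 1.95 ± 0.17 (SE; adjusted p = 2.87e-07, edgeR's quasi-likelihood test). *Krt18*, its filament partner, had 316, 315 and 247 CPM against 61.3, 83.3 and 64.3 CPM, again without overlap, with a log2 fold change of 2.08 ± 0.18 (adjusted p = 2.02e-07). *Krt19* had 105, 129 and 90.2 CPM against 34.9, 39.9 and 27.2 CPM, and its log2 fold change was 1.69 ± 0.21 (adjusted p = 8.41e-06). *Krt7* had 134, 122 and 133 CPM against 156, 95.0 and 76.3 CPM. Its groups overlapped, and its log2 fold change of 0.25 ± 0.23 did not pass (adjusted p = 0.369). OSE tissue 1 held the highest *Krt7* of all 6, and without it the log2 fold change of *Krt7* was 0.58 ± 0.18 (adjusted p = 0.0185). Of 4 members with enough counts to test, 3 passed as higher and 0 as lower, beside 26.9% of all 8787 genes tested as higher and 24.3% as lower. The median log2 fold change of the 4 was 1.82, and that of all genes tested 0.00. In a fit of all 27 libraries, with 1 spread for all groups, only *Krt8* passed among these 3, while *Krt18* and *Krt19* had adjusted p = 0.0688 and 0.310. In bulk tissue fewer cells of a type and less RNA per cell cannot be told apart. The summed steroidogenic and granulosa markers (8 of 9 in the table) were 68.7 to 286 CPM in oviduct tissue and 9570 to 11584 CPM in OSE tissue, the 6 smooth muscle markers 5716 to 7040 and 519 to 749 CPM, and the 7 fibroblast markers 3975 to 7208 and 1695 to 3230 CPM. Their part in the keratin differences was not tested.

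Stratified keratins were present in oviduct tissues 1 and 2 and not detected in oviduct tissue 3. *Krt5* had 130 and 158 counts (95.0 and 217 CPM) in tissues 1 and 2 and 0 counts in tissue 3, which allows up to 3.76 CPM. *Krt14* had 40, 67 and 0 counts (29.2, 91.8 and 0 CPM), and *Krt17* had 13, 10 and 0 counts. Both partners of the basal pair were thus present or absent together. Among all 18305 genes, only *Krt5*, *Krt14* and *Pnoc*, which encodes the precursor of the neuropeptide nociceptin, had at least 20 counts in both tissues 1 and 2 and none in tissue 3, a rule chosen after the values were seen. *Trp63*, the master transcription factor of basal cells, had 1.46, 1.37 and 0 CPM, at or below 3 counts in each. *Krt15* had 11.7, 8.22 and 2.51 CPM. In OSE tissue *Krt5*, *Krt14*, *Krt15* and *Krt17* had at most 3 counts in any library. None of these 4 genes passed the filter on low counts. Without that filter 8 of the 10 members differed between the tissues, and by DESeq2 7 did. The shares of all genes under these settings are not given beside them.

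*Krt20* and *Krt23* were scarce in both tissues. *Krt20* had 2.19, 2.74 and 1.25 CPM in oviduct tissue and 5.96, 7.04 and 11.5 CPM in OSE tissue, with no overlap but no more than 3 counts in any oviduct library. *Krt23* had at most 5.01 CPM in the 6 tissues.

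Oviductal organoids were compared with oviduct tissue to ask what changed in culture. Simple keratins were higher in organoids, with *Krt20* and *Krt7* farthest, and *Krt5*, *Krt14* and *Krt17* were not detected in them. *Krt7* had 1342, 1956 and 1824 CPM in oviductal organoids 1 to 3, a log2 fold change of 3.73 ± 0.20 over tissue (adjusted p = 1.46e-07). *Krt18* had 1230, 1800 and 1720 CPM, with 2.45 ± 0.20 (adjusted p = 2.11e-06). *Krt8* had 1350, 1501 and 1827 CPM, with 1.12 ± 0.17 (adjusted p = 0.00026). Every organoid library lay above every tissue library for these genes, and *Krt8* moved less than its partner. *Krt19* had 193, 162 and 190 CPM, with a log2 fold change of 0.77 ± 0.19 (adjusted p = 0.00538). *Krt20* had 39.6, 73.7 and 73.7 CPM, with 4.85 ± 0.46 (adjusted p = 7.16e-06). Its counts in oviduct tissues 1 to 3 were 3, 2 and 1, at or below the floor, so the size of this change is uncertain. *Krt15* had 22.6, 6.00 and 6.64 CPM and overlapped the tissue (0.65 ± 0.60, adjusted p = 0.416). Of 6 members tested 5 passed as higher and 0 as lower, beside 18.7% and 24.2% of 9477 genes, and the median log2 fold change of the 6 was 1.78 against -0.02 for all genes tested. In the fit of all 27 libraries *Krt8* and *Krt19* no longer passed (highest adjusted p = 0.246 and 0.656), and *Krt7*, *Krt18* and *Krt20* passed under every alternative run.

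*Krt5*, *Krt14* and *Krt17* had 0 counts in all 3 oviductal organoid libraries. Against the mean floor of 3 counts per library, the mean *Krt5* of oviduct tissue was at least 52.1-fold higher and the mean *Krt14* at least 20.2-fold higher, though both means rest on tissues 1 and 2. With all 6 libraries these genes did not pass the filter on low counts. With oviduct tissue 3 or any 1 organoid library left out, or without the filter, 8 members passed. The shares of all genes under these settings are not given beside this count. Markers of other cells of the tissue were near 0 in organoids. Smooth muscle markers summed to at most 6.61 CPM and fibroblast markers to at most 5.14 CPM, against at least 5716 and 3975 CPM in oviduct tissue, and ciliated cell markers (6 of 7 in the table) to 112 to 281 CPM against 1386 to 2058 CPM. Their part in the higher simple keratins was not tested, and culture and extraction kit cannot be told apart. *Krt8* per CPM of *Epcam*, an epithelial surface protein, was 3.39 to 4.15 in oviductal organoids and 2.21 to 2.63 in oviduct tissue. Other organoids did not share this higher ratio throughout. It was 1.94 to 2.48 in Cas9-GFP oviductal organoids. In OSE organoids it was 2.61 and 4.38, which overlapped the 2.05 to 3.46 of OSE tissue.

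OSE organoids were compared with OSE tissue in the same way. All 5 members tested were higher in organoids. *Krt7* had 2991 and 3629 CPM in OSE organoids 1 and 2, the highest values of this gene in the series, with a log2 fold change of 4.95 ± 0.39 (adjusted p = 0.000502). *Krt18* had 1744 and 1914 CPM, with 4.74 ± 0.28 (adjusted p = 0.000351). *Krt8* had 1787 and 1896 CPM, with 3.32 ± 0.27 (adjusted p = 0.000502). Both organoid libraries lay above every tissue library for each of these. *Krt19* had 466 and 521 CPM (3.89 ± 0.27, adjusted p = 0.000386). *Krt20* had 56.6 and 175 CPM (3.80 ± 0.55, adjusted p = 0.00321). The background was 14.5% of 10232 genes higher and 18.6% lower, the median of the 5 members was 3.89 and that of all genes tested -0.06, and all 5 passed in each of the 9 alternatives run. *Krt5*, *Krt14* and *Krt17* had 0 counts in both libraries. The steroidogenic and granulosa markers fell beside them to sums of 8.30 and 22.5 CPM, and their part in the difference was not tested.

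The rise in culture differed between both origins for *Krt8*, *Krt18* and *Krt19*. The interaction of origin and culture, which is the rise in oviductal cells minus the rise in OSE cells on the log2 scale, was -2.10 ± 0.30 for *Krt8* (adjusted p = 0.000949), -2.19 ± 0.32 for *Krt18* (adjusted p = 0.00115) and -3.03 ± 0.31 for *Krt19* (adjusted p = 0.000103). For all 3 the difference between organoid and bulk tissue was thus wider for OSE, where the tissue level was lower. The steroidogenic and granulosa markers of OSE tissue, near 0 in its organoids, moved with it, and of the 20 epithelial genes other than keratins described at the end, 13 also had a lower interaction and 0 a higher one. A change per epithelial cell and a change in the share of these cells cannot be told apart. *Krt7* had -1.11 ± 0.39 (adjusted p = 0.0879). Of 9 members that entered, 3 passed as lower and 0 as higher, beside 6.68% and 5.0% of 11458 genes; *Krt5*, *Krt14* and *Krt17* had no count in any organoid, so that their terms could not be estimated. In the fit of all 27 libraries none of the 3 passed, with adjusted p from 0.216 to 0.292, and in the other 14 alternatives all 3 did.

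Organoids of both origins were then compared with each other. No member passed, in a comparison in which 8 of 9257 genes (0.0864%) passed as higher in oviductal organoids and 0 (0.00%) as lower, and in which 1060 genes had an unadjusted p under 0.05. *Krt19* had 193, 162 and 190 CPM in oviductal and 466 and 521 CPM in OSE organoids. The libraries did not overlap, and the log2 fold change was -1.43 ± 0.23 (adjusted p = 0.116). By DESeq2 *Krt19* was the 1 member that passed (adjusted p = 4.28e-05), and it also passed without OSE organoids 1 (adjusted p = 0.00878) or 2 (adjusted p = 0.00471) and without the filter on low counts (adjusted p = 0.0442). With 1 OSE library left out the other is assumed to vary like the oviductal organoids, so these fits have no spread of their own for OSE. *Krt7* did not overlap either (-0.94 ± 0.28, adjusted p = 0.304), and it passed without OSE organoids 1 (adjusted p = 0.0457). *Krt8* (-0.23 ± 0.26) and *Krt18* (-0.19 ± 0.28) overlapped, with adjusted p = 0.811 and 0.858.

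**Figure D3:**
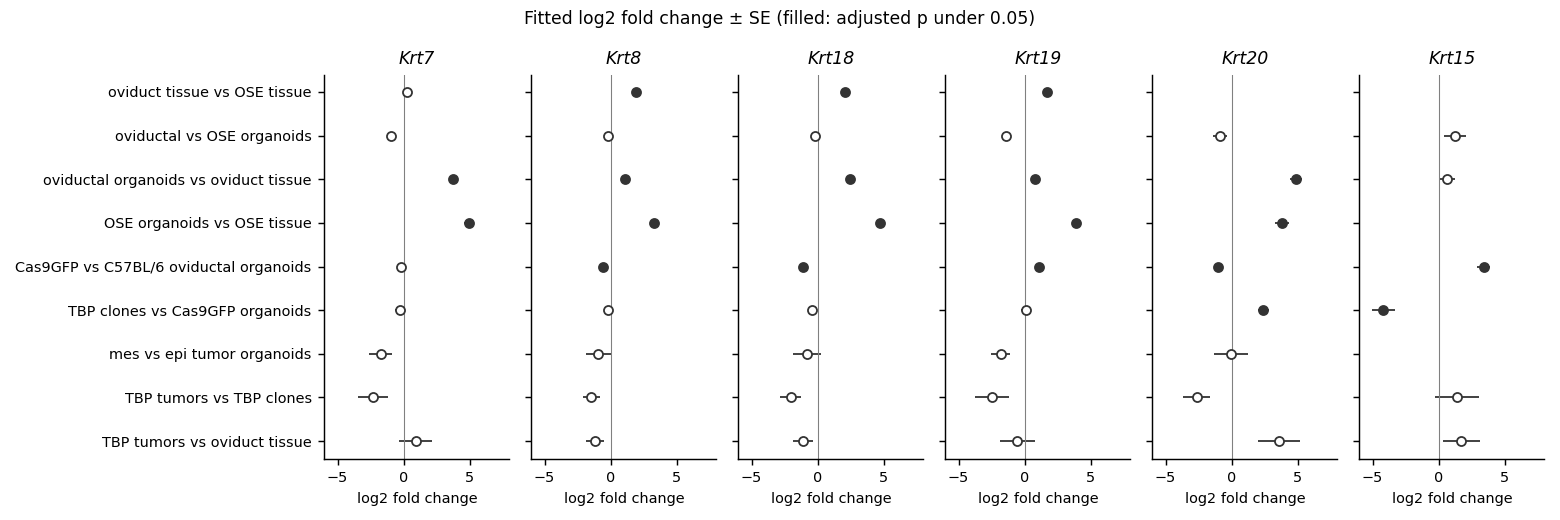
Fitted log2 fold change of the first-named against the second-named group, with its standard error as bars, for the 6 keratins that were tested in most comparisons. Filled points have an adjusted p under 0.05, and all comparisons of organoids with tissue for Krt7, Krt8, Krt18, Krt19 and Krt20 are filled and to the right of 0.

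Organoids of the Cas9-GFP mice, the parent background of the TBP clones, were compared with those of C57BL/6 mice. Both are wild type for the targeted genes, and 5 of 6 members tested differed. *Krt15* showed the widest difference, with 115, 217 and 78.2 CPM in Cas9-GFP organoids 1 to 3 against 22.6, 6.00 and 6.64 CPM (log2 fold change 3.42 ± 0.48, adjusted p = 0.000377). *Krt19* had 372, 426 and 327 CPM against 193, 162 and 190 CPM (1.06 ± 0.18, adjusted p = 0.00115). *Krt18* went the other way, with 734, 665 and 819 CPM against 1230, 1800 and 1720 CPM (-1.08 ± 0.19, adjusted p = 0.00146). None of the 3 overlapped between groups. *Krt8* had 1002, 1169 and 936 CPM, with a log2 fold change of -0.57 ± 0.18 (adjusted p = 0.0329). *Krt20* had 34.9, 27.8 and 27.9 CPM (-1.0 ± 0.30, adjusted p = 0.0272). Both were lower in every Cas9-GFP library. *Krt7* had 1241, 1430 and 1741 CPM and overlapped (adjusted p = 0.491). The members' 2 higher and 3 lower calls stand beside 13.0% and 13.3% of 8323 genes. *Krt8* and *Krt20* depended on single libraries: leaving out oviductal organoids 2 or 3 or Cas9-GFP organoids 1 or 3 ended both calls, and leaving out Cas9-GFP organoids 2 ended that of *Krt20* (adjusted p 0.0563 to 0.116 for *Krt8* and 0.0574 to 0.0883 for *Krt20*). In the fit of all 27 libraries none of the 5 passed (adjusted p 0.112 to 0.659). *Ovgp1* was at 66.4 to 95.6 CPM in Cas9-GFP and 14809 to 22700 CPM in C57BL/6 organoids, and its link with the keratins was not tested.

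TBP clones were compared with Cas9-GFP organoids to ask what the targeting and selection changed. The 4 abundant simple keratins did not pass. *Krt8* had 738, 924 and 975 CPM in TBP clones 1 to 3 (log2 fold change -0.20 ± 0.32, adjusted p = 0.885), *Krt7* had 670, 1370 and 1528 CPM (-0.27 ± 0.37, adjusted p = 0.852), *Krt18* had 352, 642 and 622 CPM (-0.41 ± 0.33, adjusted p = 0.737) and *Krt19* had 193, 515 and 460 CPM (0.12 ± 0.36, adjusted p = 0.952). Clone 1 was lowest for all 4. *Krt20* had 148, 81.9 and 237 CPM against 34.9, 27.8 and 27.9 CPM, with a log2 fold change of 2.40 ± 0.43 (adjusted p = 0.0266). *Krt15* had 56.8, 9.63 and 1.79 CPM against 115, 217 and 78.2 CPM, with -4.20 ± 0.87 (adjusted p = 0.0457). Neither gene overlapped, although clone 1 rests on 13 counts of *Krt20* and 5 of *Krt15*. Among 7708 genes 0.389% passed as higher and 0.428% as lower, and 1 of 6 members passed in each direction. Both calls were close to the threshold. *Krt20* passed in 5 of 11 alternatives and *Krt15* in 3. For *Krt20*, leaving out Cas9-GFP organoids 1, 2 or 3, clone 1 or clone 3 ended the call, with adjusted p from 0.0504 to 0.194. For *Krt15*, the same held for Cas9-GFP organoids 1, 2 or 3, clone 2 or clone 3, with adjusted p from 0.0508 to 0.193, and DESeq2 gave 0.530. *Krt14* had 0 counts in all 6 libraries and *Krt5* had 0 in Cas9-GFP organoids and 1, 1 and 3 in the clones.

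The 4 tumor-derived organoid lines were compared as T1-mes and T3-mes against T2-epi and T4-epi. No member passed, in a comparison where 1.0% of 9775 genes passed as higher in the mes lines, 0.123% as lower, and 1378 had an unadjusted p under 0.05. The mes lines differed from each other, with T3-mes low and T1-mes near the epi lines. *Krt8* was at 863 CPM in T1-mes but 76.4 CPM in T3-mes, and the epi lines had 851 and 920 CPM (log2 fold change -0.93 ± 0.96, adjusted p = 0.726). *Krt18* had 575 and 33.5 CPM against 505 and 536 CPM (-0.79 ± 1.08, adjusted p = 0.803). *Krt7* had 873 and 110 CPM against 1508 and 1747 CPM (-1.74 ± 0.87, adjusted p = 0.434). *Krt7* and *Krt19* did not overlap between mes and epi lines, and *Krt8* and *Krt18* did. *Krt19* had 191 and 42.0 CPM against 316 and 489 CPM (-1.80 ± 0.71, adjusted p = 0.339). *Krt20* had 222 and 8.01 CPM against 45.4 and 191 CPM (-0.06 ± 1.31, adjusted p = 0.990). Without T1-mes, all 5 members tested were lower in T3-mes, by -3.97 to -3.27 on the log2 scale (highest adjusted p = 0.0289), where a single mes library is assumed to vary like the epi lines. *Vim*, the intermediate filament gene of mesenchymal cells, was at 391 CPM in T1-mes, 738 CPM in T3-mes and no more than 11.9 CPM in the epi lines. *Epcam* had 27.8 CPM in T3-mes against 235 CPM in T1-mes, and *Krt8* per *Epcam* was 2.75 in T3-mes and 3.68 in T1-mes, against 2.01 and 1.59 in the epi lines. The 7 fibroblast markers summed to 3077 to 7332 CPM in the mes lines and 30.6 to 99.6 CPM in the epi lines, and their part in the keratin levels was not tested.

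*Krt15* and *Krt23* set T1-mes apart. *Krt15* had 526 CPM (1173 counts) in T1-mes, the highest value of the series, and 1.41 to 3.70 CPM in the other 3 lines. *Krt23* had 27.8 CPM in T1-mes, 3.30 CPM in T3-mes and 0 in both epi lines. The stratified pair did not accompany *Krt15*, since *Krt5* and *Krt14* had 0 counts in T1-mes. In the Cas9-GFP organoids too, *Krt15* stood at 78.2 CPM or more with *Krt5*, *Krt14* and *Krt17* at 0 counts.

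TBP tumors were compared with the TBP clones. *Krt5* and *Krt14* were higher in tumors, and the 6 tumors were very unequal in both keratin sets. *Krt14* had 58.4, 351, 185, 759, 0.967 and 42.7 CPM in Tumors 1 to 6 and 0 counts in all 3 clones. The mean of the tumors was at least 19.2-fold above the mean floor of 3 counts per clone library, most of which comes from clone 1 (adjusted p = 0.0180; Tumor 5 with 3 counts is at the floor). *Krt5* had 108, 334, 266, 751, 0 and 0 CPM against 11.4, 0.535 and 0.670 CPM in clones 1 to 3, of which clone 1 is a single count. Tumors 1 to 4 were above all clones and Tumors 5 and 6 below, and the log2 fold change was 7.99 ± 2.73 (adjusted p = 0.0443). *Krt17* had 6.61, 44.7, 8.42, 64.7, 0 and 0 CPM in tumors and no more than 2 counts in a clone (5.75 ± 2.27, adjusted p = 0.0742). *Krt5* and *Krt14* were of like level in Tumors 1 to 4, at 0.953 to 1.85 CPM of *Krt5* per CPM of *Krt14*. Tumor 6 broke this pairing, with 70 counts of *Krt14* and 0 of *Krt5*.

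The simple keratins split the same 6 tumors in another way. *Krt8* had 552, 152, 787, 43.5, 213 and 193 CPM in Tumors 1 to 6 (log2 fold change over clones -1.45 ± 0.67, adjusted p = 0.119). *Krt18* had 237, 14.9, 306, 15.5, 103 and 128 CPM (-2.03 ± 0.78, adjusted p = 0.0677). *Krt7* had 545, 2.63, 719, 19.3, 61.6 and 93.2 CPM (-2.33 ± 1.13, adjusted p = 0.137). Tumors 1 and 3 were highest in all 3 and Tumors 2 and 4 lowest. *Krt19* had 169, 4.39, 247, 3.86, 6.45 and 1.22 CPM (-2.47 ± 1.27, adjusted p = 0.160), so that it was low in Tumors 5 and 6 as well. *Krt20* had 18.7, 1.75, 92.0, 0.966, 28.7 and 1.83 CPM (-2.64 ± 1.01, adjusted p = 0.0674). *Krt15* had 24.8, 28.9, 82.2, 16.4, 0.322 and 0 CPM. *Krt23* stayed at 2.75 CPM or less. The median log2 fold change of the 9 members tested was -1.45 and that of all genes 0.16, to which these changes are relative. Of the 9, 2 passed as higher and 0 as lower, beside 20.1% and 11.7% of 10473 genes. *Krt5* lost its call when Tumor 1, 2 or 4 or any 1 clone was left out (adjusted p 0.0523 to 0.171), and *Krt14* when clone 2 or clone 3 was left out (0.0638 and 0.0778). Without Tumor 3, 5 members passed, *Krt5* and *Krt14* as higher and *Krt8* (-1.97 ± 0.59, adjusted p = 0.0260), *Krt18* (-2.48 ± 0.76, adjusted p = 0.0278) and *Krt20* (-3.82 ± 0.83, adjusted p = 0.00574) as lower. *Krt18* also passed by DESeq2 (adjusted p = 0.0375). In the fit of all 27 libraries 8 of the 9 passed (adjusted p 0.00626 to 0.0435), and *Krt15* did not. *Krt5*, *Krt14* and *Krt17* were higher there, and *Krt7*, *Krt8*, *Krt18*, *Krt19* and *Krt20* lower. The shares of all genes under these alternatives are not given beside them, so these counts are not results about the members alone.

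Markers of other cells moved with these patterns. *Epcam* had 201, 7.90, 363, 13.5, 0 and 1.83 CPM in Tumors 1 to 6, high where *Krt19* was high. Tumors 5 and 6 therefore carried *Krt8* at 213 and 193 CPM with almost no *Epcam*, and *Krt8* per *Epcam* was 105 in Tumor 6 against 1.59 to 2.05 in the clones. The skin and hair markers (7 of 8 in the table, 4 or more of them detected in Tumors 1 to 4 and 2 in Tumors 5 and 6) summed to 13.2, 711, 43.8, 166, 3.87 and 3.66 CPM, against 0 to 5.13 CPM in clones. The hair follicle keratins *Krt71* and *Krt25* were at 49.1 and 35.1 CPM in Tumor 2 and at 1.01 CPM or less in the other tumors, and *Lor*, a cornified envelope gene, was at 138 CPM in Tumor 2. *Trp63* had 0.551, 16.7, 10.4, 52.2, 0.967 and 0.609 CPM and was at 0 in all clones. With Tumors 2 and 4 left out, an alternative added after seeing the data, *Krt14* passed (adjusted p = 0.0272) and *Krt5* did not (adjusted p = 0.0941). *Krt18* passed there as lower (-1.49 ± 0.46, adjusted p = 0.0413). The tumors kept in that fit still held skin and hair markers, at sums of up to 43.8 CPM, and all clones had 0 counts of *Krt14*. Whether the *Krt14* call depends on skin cells was therefore not tested by leaving these tumors out. Tumor 1 had 4 skin markers at a sum close to that of oviduct tissue 1 (11.7 CPM) with *Krt5* at 108 CPM. The keratins of activated epidermis *Krt6b*, *Krt6a* and *Krt16* had 25.3, 15.4 and 12.1 CPM in Tumor 1. In oviduct tissue 1 they had 0, 6.58 and 0 CPM. Fibroblast markers summed to 9653 to 58224 CPM in tumors and at most 22.7 CPM in clones. The part of skin cells and of other host cells in the levels was not tested, and tumor and host keratins cannot be told apart in these counts.

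**Figure D4:**
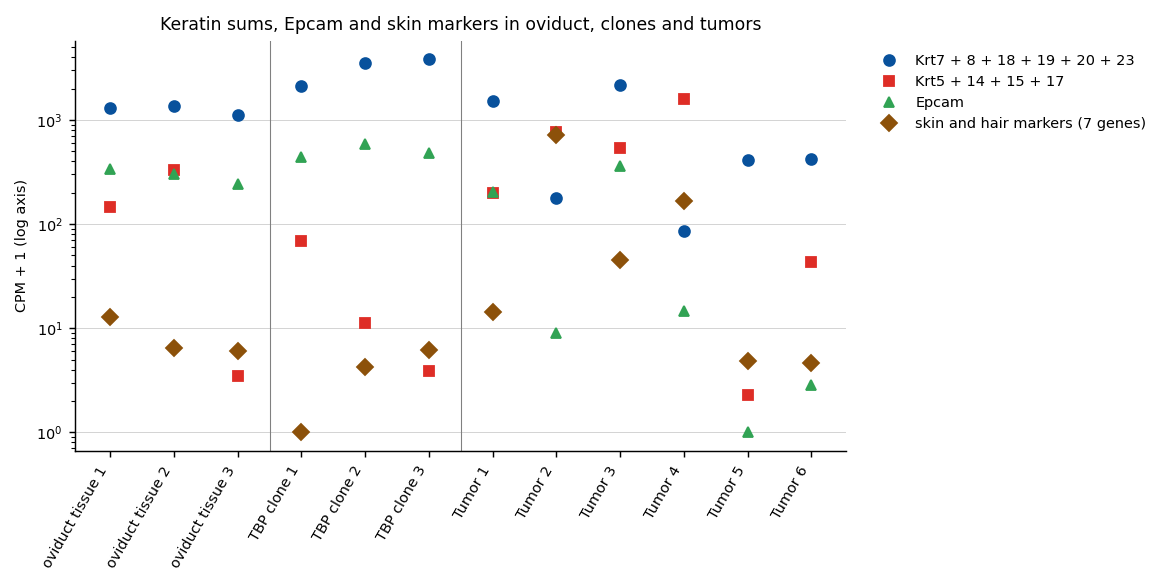
CPM plus 1 (log axis) for the summed simple keratins (circles), summed stratified keratins (squares), Epcam (triangles) and the summed skin and hair markers (diamonds) in the libraries of oviduct tissue, TBP clones and TBP tumors. The stratified sum exceeds the simple sum only in Tumors 2 and 4, where the skin and hair sums of 711 and 166 CPM are also the highest.

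Against oviduct tissue the tumors did not differ in any member by edgeR's quasi-likelihood test, beside 23.7% of 10827 genes higher and 22.4% lower and 5794 with an unadjusted p under 0.05. All 10 members overlapped between the groups. *Krt20* came nearest (log2 fold change 3.57 ± 1.60, adjusted p = 0.0914), and it passed without Tumors 2 and 4 (4.10 ± 1.29, adjusted p = 0.0320). The size of both changes is uncertain, since *Krt20* was at or below the floor of 3 counts in every oviduct tissue library. *Krt8* had -1.16 ± 0.67 (adjusted p = 0.181) and *Krt14* 2.54 ± 1.57 (adjusted p = 0.209). By DESeq2, in the fit of all 27 libraries and without Tumor 3, 1 member passed in each, without the shares of all genes beside it. The tumors were widely spread, with *Krt7* from 2.63 to 719 CPM.

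Of the 34 other keratins in the table, 19 reached 10 CPM in at least 1 library. *Krt4*, a type II keratin of internal stratified linings such as the esophagus, was the most abundant. It had 0 counts in all 6 tissues, 5.14 to 102 CPM in oviductal organoids, 69.4 and 16.4 CPM in OSE organoids and 179, 85.1 and 920 CPM in Cas9-GFP organoids. It had 590, 511 and 1391 CPM in TBP clones, 2016, 2539, 72.1 and 1443 CPM in T1-mes, T2-epi, T3-mes and T4-epi, and 38.0 CPM or less in tumors. *Krt4* was thus found in organoids in which *Krt5* and *Krt14* were at or near 0. It passed as higher in OSE organoids compared with the tissue of the same origin (adjusted p = 0.00902; the tissues are at 0) and in Cas9-GFP than in C57BL/6 organoids (3.23 ± 0.90, adjusted p = 0.0200), and as lower in tumors than in clones (-6.25 ± 1.20, adjusted p = 0.00287).

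The remaining ones were mostly in tumors with *Krt5* and *Krt14*. *Krt6b*, *Krt6a* and *Krt16*, keratins of activated epidermis, reached 1534, 597 and 562 CPM in Tumor 4 and 598, 244 and 304 CPM in Tumor 2. They had 25.3, 15.4 and 12.1 CPM in Tumor 1, 151, 146 and 68.7 CPM in Tumor 3, and 0 in Tumors 5 and 6. *Krt10* (247 CPM) and *Krt1* (121 CPM), the pair of the suprabasal epidermis, were highest in Tumor 2, as were *Krt71*, *Krt73*, *Krt25*, *Krt81*, *Krt31*, *Krt33a*, *Krt86*, *Krt75* and *Krt27*, at 10.5 to 49.1 CPM. *Krt6a* and *Krt6b* have near-identical sequences, so that their split is uncertain. Outside tumors, *Krt6a* was highest in OSE organoids 1, at 36.2 CPM (48 counts), with 0 counts in OSE organoids 2. It had 20.8 CPM in T2-epi. *Krt85* was at most 22.7 CPM, which is 2 counts in TBP clone 1 and below the floor of that library. *Krt12* was at most 20.6 CPM, *Krt84* at most 19.5 CPM and *Krt79* at most 16.7 CPM.

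**Figure D5:**
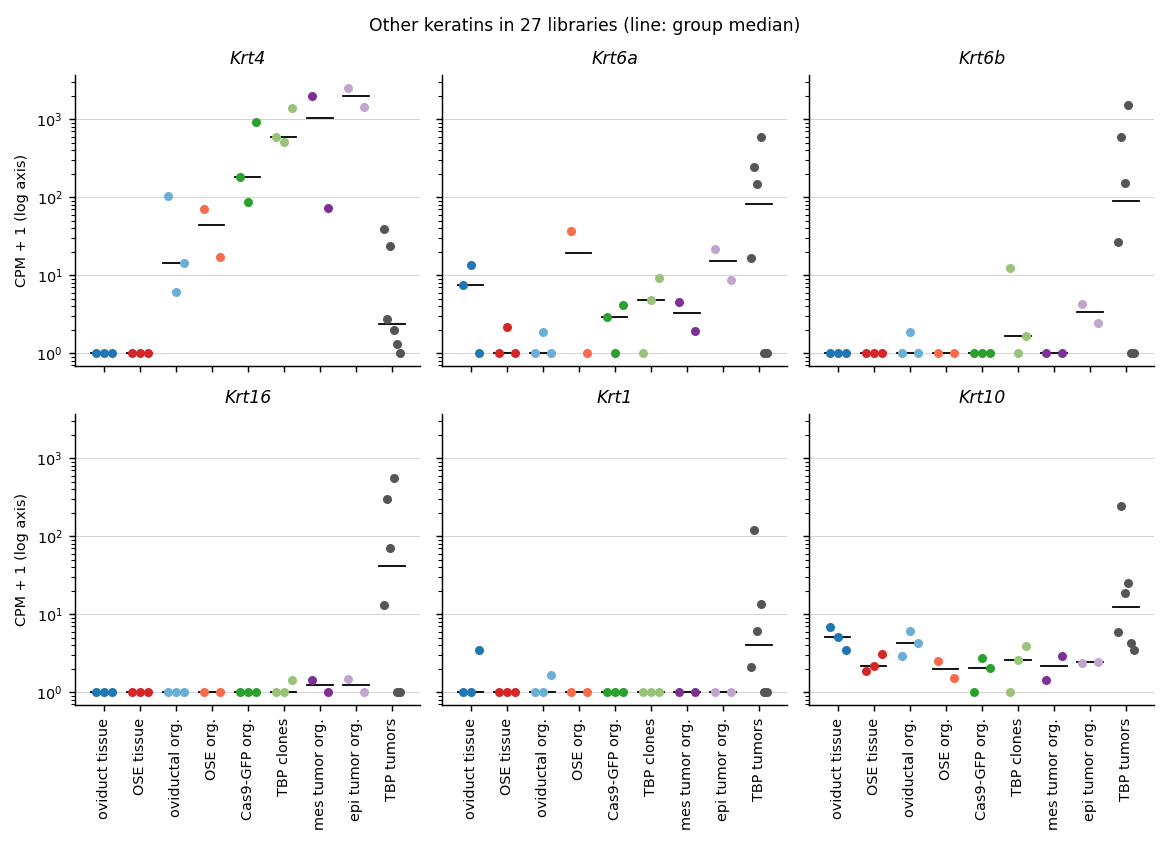
CPM plus 1 (log axis) of 6 keratins beyond the 10 members, 1 point per library with the group median as a line. Krt4 is at 0 in all tissues and rises to 2539 CPM in T2-epi, while Krt6a, Krt6b, Krt16, Krt1 and Krt10 have their highest values in tumors.

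Genes that anchor keratin filaments to desmosomes and hemidesmosomes or regulate them (18 listed) were followed beside the members. Of 15 tested between tissues, 8 were higher in oviduct and 1 lower (26.9% and 24.3% of all genes tested), with *Dst*, a hemidesmosomal linker, at 2.21 ± 0.22 (adjusted p = 9.34e-07) and *Sqstm1*, an autophagy receptor found in keratin inclusions, at -0.56 ± 0.15 (adjusted p = 0.00587). Of 16 tested in oviductal organoids against tissue, 3 rose, led by *Jup* (plakoglobin, 1.83 ± 0.21, adjusted p = 2.86e-05), and 3 fell, among them *Plec* (plectin, -0.87 ± 0.22, adjusted p = 0.0073), shares near the 18.7% and 24.2% of all genes. In OSE organoids against tissue 8 of 16 rose and 0 fell (14.5% and 18.6% of all genes), with the desmosomal cadherin *Dsg2* at 3.23 ± 0.44 (adjusted p = 0.00258). Between oviductal and OSE organoids, in clones and in mes lines, 0 of 17, 0 of 16 and 0 of 17 passed, and for the interaction 7 of 17 were lower, beside 6.68% of all genes. In Cas9-GFP against C57BL/6 organoids 6 of 16 were higher and 2 lower (13.0% and 13.3% of all genes), *Plec* at 1.05 ± 0.23 (adjusted p = 0.00529) and *Jup* at -1.06 ± 0.25 (adjusted p = 0.00787). Of 17 tested in tumors, 1 was higher and 2 lower than in clones (20.1% and 11.7% of all genes), and 2 higher and 5 lower than in oviduct tissue (23.7% and 22.4%), with *Ndel1* higher in both (1.58 ± 0.32 and 2.32 ± 0.24).

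Of the 15 intermediate filament genes other than keratins (14 in the table), 4 of 8 tested fell in oviductal organoids and 5 of 7 in OSE organoids, beside 24.2% and 18.6% of all genes, and 0 rose, beside 18.7% and 14.5%. *Vim* changed by -2.35 ± 0.24 on the log2 scale in the former (adjusted p = 1.16e-05) and by -4.20 ± 0.74 in the latter (adjusted p = 0.00618). *Vim* was higher in mes than in epi lines (6.14 ± 0.70, adjusted p = 0.0267), the 1 of 5 tested that passed (1.0% of all genes were higher). It was also higher in tumors than in clones (10.33 ± 1.60, adjusted p = 0.000914), where 4 of 7 passed as higher, beside 20.1% of all genes. TBP clones 1 to 3 had 2, 0 and 0 counts of *Vim*, below the floor, so the size of that change is uncertain. Between tissues 4 of 8 were higher in oviduct, with the muscle filament gene *Des* at 5.09 ± 0.38 (adjusted p = 4.71e-08), and 2 lower, beside 26.9% and 24.3%. The list gave 0 of 6 between organoids, 1 higher and 1 lower of 5 in Cas9-GFP organoids (13.0% and 13.3% of all genes), 0 of 4 in clones, 0 of 8 for the interaction, and 3 higher and 1 lower of 8 in tumors against oviduct tissue (23.7% and 22.4%).

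Epithelial genes without keratins (20 listed: adhesion, tight junctions and their regulators) were followed as a measure of epithelium independent of the members. Between tissues 13 of 14 were higher in oviduct, beside 26.9% of all genes, with *Cldn7* at 6.79 ± 0.39 (adjusted p = 2.94e-09) and *Ehf* at 4.40 ± 0.20 (adjusted p = 3.65e-10). In oviductal organoids 12 of 18 rose (18.7% of all genes), with *Cldn4* at 3.95 ± 0.39 (adjusted p = 1.09e-05), and in OSE organoids 18 of 18 (14.5% of all genes), with *Muc1* at 8.53 ± 1.66 (adjusted p = 0.00876). Between organoids, in clones and in mes lines 0 of 20, 0 of 19 and 0 of 19 passed. In Cas9-GFP organoids 2 of 20 were higher and 4 lower, shares near the 13.0% and 13.3% of all genes, *Cdh1* (E-cadherin) at -1.32 ± 0.16 (adjusted p = 0.000174). In tumors 5 of 20 fell against clones (11.7% of all genes), led by *Spint1* (-4.07 ± 1.0, adjusted p = 0.0105), and 2 of 18 against oviduct tissue (22.4%). For the interaction 13 of 20 were lower, beside 6.68%. The share of epithelial cells in tissue and tumor was not measured.

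Genes of basal and squamous epithelium (24 listed, 23 in the table) included genes that rose in organoids in which *Krt5* and *Krt14* were not detected. In oviductal organoids against tissue 5 of 9 rose and 2 fell, beside 18.7% and 24.2% of all genes. *Sprr1a*, a cornified envelope precursor, rose by 7.79 ± 0.43 (adjusted p = 1.58e-07), while *Krt5* and *Krt14* were at 0. In OSE organoids 7 of 8 rose (14.5% of all genes), *Sprr1a* by 7.35 ± 1.33 (adjusted p = 0.0069), and 1 fell, *Lgals7* (galectin 7, -6.86 ± 0.64, adjusted p = 0.000764). *Sprr1a* was higher in Cas9-GFP than in C57BL/6 organoids (1.61 ± 0.27, adjusted p = 0.00109), where 2 of 7 were higher and 1 lower (13.0% and 13.3%), and *Sprr2f* was higher in clones than in Cas9-GFP organoids (3.32 ± 0.57, adjusted p = 0.0227), the 1 of 8 that passed (0.389% of all genes were higher). In tumors against clones *Sprr1a* was lower (-3.71 ± 0.59, adjusted p = 0.00113), with 1 of 17 higher and 2 lower beside 20.1% and 11.7% of all genes, the opposite sign to *Krt5* and *Krt14*. Against oviduct tissue 1 of 16 was higher, beside 23.7%, *Sprr1a* (6.11 ± 0.94, adjusted p = 0.000601). In mes lines 1 of 10 was higher, beside 1.0%, *Ly6d* (3.71 ± 0.39, adjusted p = 0.0236), a basal cell surface gene. Between tissues 2 of 3 were higher in oviduct and 1 lower (26.9% and 24.3%), between organoids 0 of 9 passed, and for the interaction 0 of 13 were higher and 4 lower (5.0% and 6.68%).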

How the data were processed

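RNA of tissues, organoids and tumors was sequenced by CEL-Seq2, a protocol that tags transcript 3′ ends, and aligned to GRCm38 by the authors (BWA per the submitters' notes). The deposited values are raw read counts per gene, with no collapse of molecular identifiers applied, in 27 columns, 1 per library, and 1 spike-in row was left out. Totals per library set the precision, and 3 counts were taken as the floor of a library. Counts were tested with edgeR 4.0.16 (quasi-likelihood, TMM, filterByExpr, libraries of the groups compared, Benjamini-Hochberg over all genes tested, threshold 0.05) in R 4.3.3. The test was checked on simulated counts. Alternatives were DESeq2 1.42.0, RLE size factors, no filter, a fit of all 27 libraries, a replicate block and leaving out each library. The members, lists and tests were chosen with earlier results of these data known. Named were all members, other keratins with at least 10 CPM in a library, the 5 genes most alike each pair, and per list and comparison up to 2 genes each way among those that passed with a mean of at least 50 CPM and no overlap, of which the text gives some. Lists of other cell types covered secretory, ciliated, mesothelial, steroidogenic, smooth muscle, fibroblast, endothelial, leukocyte, erythroid, and skin and hair cells. Some items are not reported here.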

Additional observations from a re-analysis of the deposited data

Results flagged for a closer look

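In the 6 tumors and in the 4 tumor organoid lines, mes and epi together, 18 sets of member values were searched. A library far from the rest was found in 6 of them. The search used CPM without logs, and members such as *Krt8* and *Krt18* moved together. How many of the 18 would be flagged by chance is therefore not known. T3-mes stood apart below the other lines in *Krt8* (76.4 CPM) and *Krt18* (33.5 CPM). T1-mes stood apart above them in *Krt15* (526 CPM) and *Krt23* (27.8 CPM). Tumor 3 stood apart above the other tumors in *Krt15* (82.2 CPM) and *Krt20* (92.0 CPM). The change from tissue to organoid differed between oviduct and OSE, by the interaction in edgeR's test, for *Krt8* (-2.10 on the log2 scale, adjusted p = 0.000949), *Krt18* (-2.19, adjusted p = 0.00115) and *Krt19* (-3.03, adjusted p = 0.000103).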

How the results depend on the processing

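Of 762 member values under an alternative, 676 kept their direction and side of the threshold, 44 lost and 32 gained a call, and 10 changed sign. The cause was not tested for any of them. Counts of members under alternatives, here and above, stand without the share of all genes that passed under the same setting. A changed count is therefore not a result about the members alone. Members called went from 3 between tissues to 7 (DESeq2), 8 (no filter) and 1 (fit of all 27 libraries). Between organoids 0 became 1 by DESeq2 and 1 without filter, and in oviductal organoids against tissue 5 became 8 without filter. In Cas9-GFP organoids 5 became 0 in the fit of all libraries. In clones 2 became 1 (DESeq2), 1 (RLE) and 0 (all libraries). In mes against epi lines 0 became 1 by DESeq2 and 1 with all libraries. In tumors against clones 2 became 8 with all libraries. In tumors against oviduct tissue 0 became 1 by DESeq2, 1 with all libraries and 1 without Tumors 2 and 4, and for the interaction 3 became 0 with all libraries.

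Leaving out 1 library at a time gave 3 to 6 members between tissues, 0 to 2 between organoids, 5 to 8 and 5 to 5 in oviductal and OSE organoids against tissue, 3 to 5 in Cas9-GFP organoids, 0 to 1 in clones, 0 to 5 in mes lines, 0 to 5 in tumors against clones, 0 to 1 against oviduct tissue and 3 to 4 for the interaction. Log2 fold changes whose sign changed ranged from -0.012 to 0.58 (*Krt7*, tissues), -1.49 to 0.14 (*Krt20*, organoids), -0.29 to 1.22 (*Krt15*, oviductal organoids against tissue), -0.10 to 0.35 (*Krt19*, clones), -3.97 to 0.12 (*Krt18*, mes lines) and -3.89 to 1.32 (*Krt20*, mes lines). Without Tumors 2 and 4, *Krt5* and *Krt17* were at -0.10 and -0.99 against oviduct tissue.

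The sample labels give no replicate numbers, so the library numbers were not taken as pairs. Deviations of same-numbered libraries from their group means had weak positive correlations (0.0159 to 0.0917). Libraries of unlike number were not compared in this way. With the replicate block the counts were 3 between tissues, 5 and 5 in oviductal and Cas9-GFP organoids, 2 in clones and 0 in mes lines, and no member call changed. Depth limits TBP clone 1 most, and 2 libraries a group limit OSE organoids and tumor lines.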

Other observations

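Markers of further cell types gave values that belong to no comparison above. Mesothelial markers (5 genes) summed to 313 to 480 CPM in oviduct tissue, 483 to 671 CPM in OSE tissue, 397 to 451 CPM in oviductal organoids and 555 and 2224 CPM in OSE organoids, the groups in which *Krt7* was 122 to 134, 76.3 to 156, 1342 to 1956 and 2991 to 3629 CPM. Secretory oviduct markers (3 genes) summed to 231 to 247 CPM in Cas9-GFP organoids. Endothelial markers (5 genes) summed to 115 to 138 CPM in oviduct tissue, 65.6 to 91.5 CPM in OSE tissue and 42.1 to 170 CPM in tumors, leukocyte markers (5 of 6 in the table) to 253 to 784 CPM in tumors, and erythroid markers (2 of 5 in the table) to 1.35 to 138 CPM in tumors, the groups that hold host or tissue cells beside keratin-expressing ones.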
